A study of Mus musculus with 5 samples.

Results

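The MYC, MAX and MXD network was examined in prostate cancer (PCa) tissue of castrated and intact TripleTg mice. Its 10 members were taken by symbol from the 24527 genes of the deposited count table. They comprised 3 activators (Myc, Mycn and Mycl), 2 hubs (Max and Mlx) and 5 antagonists (Mxd1, Mxd3, Mxd4, Mxi1 and Mnt). TripleTg mice carry hHGFtg, a human HGF transgene expressed throughout the body, together with H11 hMET/+, Ctnnb1 L(Ex3)/+ and PB Cre4. The Cre recombinase is driven by the probasin promoter, so that human MET and a stabilized β-catenin lacking exon 3 are switched on in prostate epithelium, in castrated and intact mice alike. RNA was sequenced from 3 mice castrated at 4 months and 2 intact mice, all analyzed at 8 months. The castrated libraries (replicates 1 to 3) held 28015507, 18951782 and 20492061 counts in genes, and the intact libraries (replicates 1 and 2) held 21560355 and 22853501. Each sample is a separate mouse, and mice without the transgenes were not analysed here, so that both groups are tumors of the same genotype.

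MYC proteins bind DNA only as partners of MAX, and the MYC-MAX dimer recognizes the E-box CACGTG and promotes transcription of genes for ribosome production, nucleotide synthesis and cell division. The MXD proteins, MXI1 and MNT compete for MAX and bring the SIN3 and histone deacetylase corepressor to the same sites, and MXD1 and MXD4 are known from differentiating cells. MLX is a second, MAX-like hub that pairs with the glucose-responsive factors MondoA and ChREBP as well as with some antagonists. In intestinal epithelium, Myc is a classical target of β-catenin, the protein stabilized in these mice.

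The E-box itself was present near the start site of several members, and these stretches are shown because the same 6 letters are the site the network binds. CACGTG reads the same on both strands and was searched in RefSeq promoter windows of build GRCm38.p6, from 250 bases before to 50 bases after the start site. Windows matched 9 of the 10 members (not Myc), and 4 of these 9 held CACGTG, against 11.2% of 11533 tested genes with a window. The stretches are 30 bases each, written 5′ to 3′ on the strand of the gene, with the E-box in capitals. That of Max lies at chr12:76962234-76962263 on the minus strand, with the E-box beginning 3 bases before the start site. That of Mlx lies at chr11:101087238-101087267 on the plus strand, beginning 40 bases before it. That of Mxd4 lies at chr5:34187912-34187941 on the minus strand, beginning 219 bases before it, and that of Mnt at chr11:74830789-74830818 on the plus strand, beginning 123 bases before it.
Max: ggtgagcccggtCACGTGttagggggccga
Mlx: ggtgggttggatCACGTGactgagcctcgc
Mxd4: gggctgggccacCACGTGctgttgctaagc
Mnt: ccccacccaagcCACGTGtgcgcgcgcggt
Both hubs and 2 of 5 antagonists thus carried the letters, and the windows of Mycn, Mycl, Mxd1, Mxd3 and Mxi1 did not. A match describes the sequence only, since binding was not measured.

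The libraries were not uniform within the groups, and this bears on every comparison below. As a sum, epithelial markers (Epcam, Krt8, Krt18, Cdh1, Krt5 and Trp63) were abundant in every library. The sum was 3196, 2978 and 3831 CPM (counts scaled to library size, with TMM factors) in the castrated samples and 4497 and 3136 CPM in the intact samples, Krt8 being the most abundant. This did not hold for each marker, as Krt5 and Trp63 were far lower in intact replicate 1 than in intact replicate 2 (values given with Mycl). The prostate-defining secretory genes were nearly absent outside 1 library. Tgm4 had 12, 1 and 1 counts in the castrated samples, against 5 and 28976 in the intact samples, and Pbsn, the gene whose promoter drives the Cre, had 13, 0 and 5 counts against 0 and 112. The summed level of the 5 prostate markers was 87.1, 129.5 and 226 CPM in castrated and 28.9 and 2373 CPM in intact samples. Tgm4 was the most abundant of them in intact replicate 2 only. Adipocyte markers stood apart in castrated replicates 2 and 3, where the 8 genes summed to 2308 and 1473 CPM against 192 CPM in castrated replicate 1 and 63.2 and 263 CPM in the intact samples. Lpl was the most abundant of them, and 4 of the 8 were at 0 in each intact sample.

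The 10 members spanned a wide range of levels. Compared per length as TPM (counts scaled for gene length and then for library size, mean ± SD over all 5 samples), Mxd4 was the most abundant member at 272 ± 36.8 TPM, followed by Max at 109 ± 10.4, Myc at 94.9 ± 61.5 and Mycl at 73.4 ± 104 TPM. Mlx (50.04 ± 8.84 TPM) and Mxi1 (49.1 ± 9.60 TPM) came next, then Mnt (22.5 ± 4.19 TPM) and Mxd1 (21.0 ± 7.42 TPM). Mxd3 (2.24 ± 1.63 TPM) and Mycn (1.34 ± 0.52 TPM) were barely detected. Mxd4 exceeded Max in 5 of 5 samples, Mxi1 exceeded Mnt in 5 of 5 and Mxd1 exceeded Mxd3 in 5 of 5. Neighbours that changed places between samples were Max and Myc, Myc and Mycl, and Mnt and Mxd1, where the first exceeded the second in 4 of 5 samples, Mlx and Mxi1 (2 of 5), Mxd3 and Mycn (2 of 5), and Mycl and Mlx (1 of 5). The place of Mycl rested on intact replicate 2, since its TPM ranged from 3.35 to 257.

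Castrated and intact samples were compared to ask how network expression differs after androgen withdrawal. All 10 members passed the filter of a CPM above 1 in at least 2 samples. None passed the quasi-likelihood test of edgeR at a Benjamini-Hochberg adjusted p under 0.05 with an absolute log2 fold change above 1, and neither did any other of the 14612 genes tested, a background of 0%. With the same thresholds, DESeq2 called 989 genes, 1 of them a member (Mxd3, DESeq2 adjusted p = 0.020). Mxd3 passed the filter only through the 2 intact samples, where it is higher, so that its call and the counts of 1 below say nothing of the network as a whole. At an unadjusted p under 0.05 in edgeR, 1 of 10 members (Mxd3) was lower and 0 were higher in castrated samples, against 6.28% and 8.74% of all genes (15%, or 2195 genes, in either direction, a count that ranged from 1037 to 3312 when 1 library was left out). The groups did not overlap for 2 members, Mxd3 below both intact samples and Mxd4 above both in 3 of 3 castrated samples, while 16.1% of all genes lay below both and 17% above both. These levels are TMM-scaled CPM. In TPM, where the median of all genes tested was at 0.13 (log2, limma) in place of -0.028, 10.7% of all genes lay below both and 20.5% above both, and of the members Mxd3 alone did not overlap. The TPM of a gene was at the median 0.765, 0.770 and 0.755 times its CPM in castrated samples and 0.802 and 0.604 times in intact samples, so that intact replicate 2 stands lower in TPM. The median log2 fold change was -0.11 over the members and -0.028 over all genes tested. As bulk RNA was measured, fewer cells of a type and less RNA per cell cannot be told apart for any of them.

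**Figure D1:**
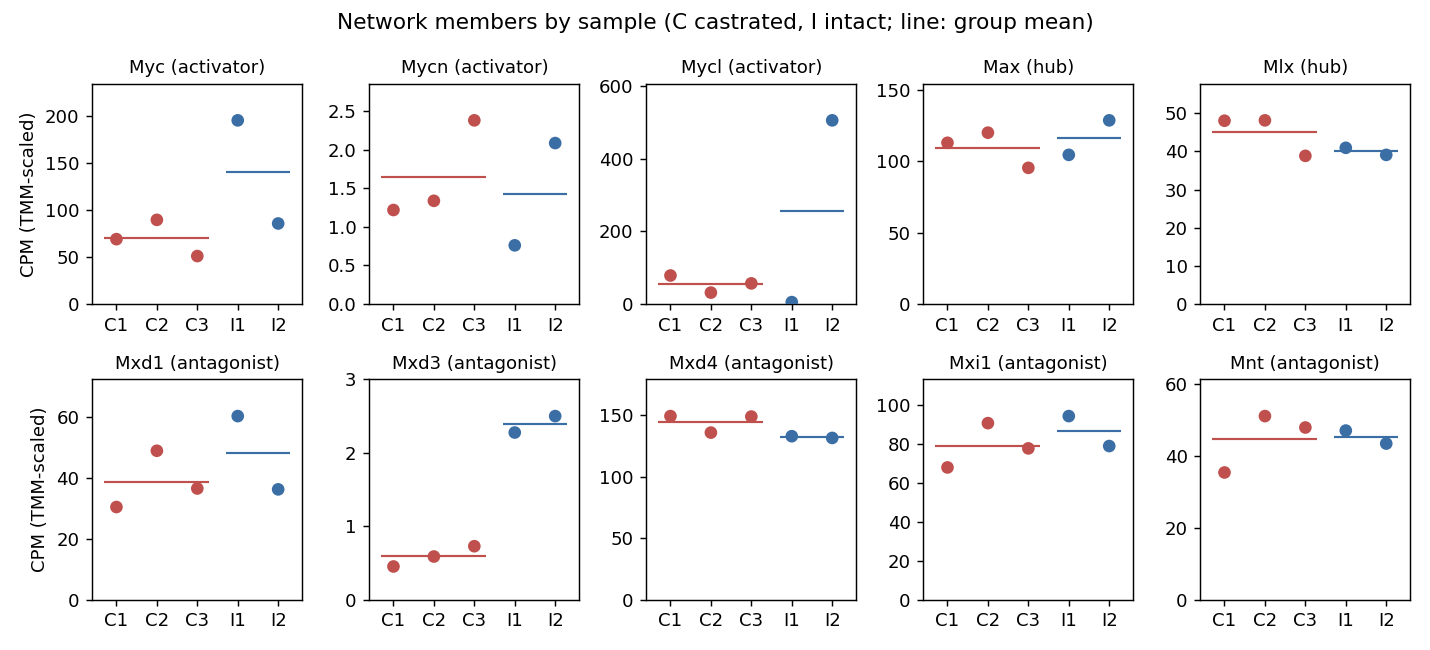
CPM of the 10 members in each sample on linear axes from 0 that differ between panels, with castrated (C) and intact (I) mice as points and lines for the group means. The intact samples are far apart for Mycl, at 4.96 and 506 CPM, and close together for Mxd3, at 2.28 and 2.50 CPM.

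Among the activators, Myc, the canonical oncogenic member (mm10 chr15:61985341-61990361, plus strand), was at 68.9, 89.5 and 50.9 CPM in the castrated samples and at 195 and 85.6 CPM in the intact samples. Intact replicate 1 stood alone, and castrated replicate 2 was above intact replicate 2, so the groups overlapped. The log2 fold change was -1.01 (SE 0.42, 95% interval -2.07 to 0.046, edgeR adjusted p = 0.345). It was -0.28 without intact replicate 1 and -1.49 without intact replicate 2.

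Mycl, a family member known from neuroendocrine and other epithelial cancers (chr4:122995931-123002480, plus strand), differed most between the 2 intact mice. Its level was 78.3, 31.2 and 56.6 CPM in the castrated samples and 4.96 and 506 CPM in the intact samples, a ratio of 102 between the intact samples. Every castrated sample lay between the 2 intact samples. The log2 fold change of -2.21 (SE 1.48, 95% interval -5.95 to 1.53, edgeR adjusted p = 0.517) became 3.48 without intact replicate 2 and -3.17 without intact replicate 1, so its sign was set by 1 library. Intact replicate 2 was also the library with Tgm4 at 1342 CPM. Krt5 (403 against 28.8 CPM) and Trp63 (101 against 6.07 CPM) stood higher there than in intact replicate 1 as well. The part of these genes in the Mycl level was not tested.

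Mycn, an activator of neural and neuroendocrine tumors (chr12:12936093-12941836, minus strand), was near the floor of detection, with 35, 25 and 49 counts in the castrated and 17 and 45 counts in the intact samples. These correspond to 1.22, 1.34 and 2.38 CPM against 0.76 and 2.08 CPM, and the groups overlapped. Its log2 fold change was 0.21 (SE 0.67, 95% interval -1.48 to 1.89), and did not pass the test (edgeR adjusted p = 0.907).

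**Figure D2:**
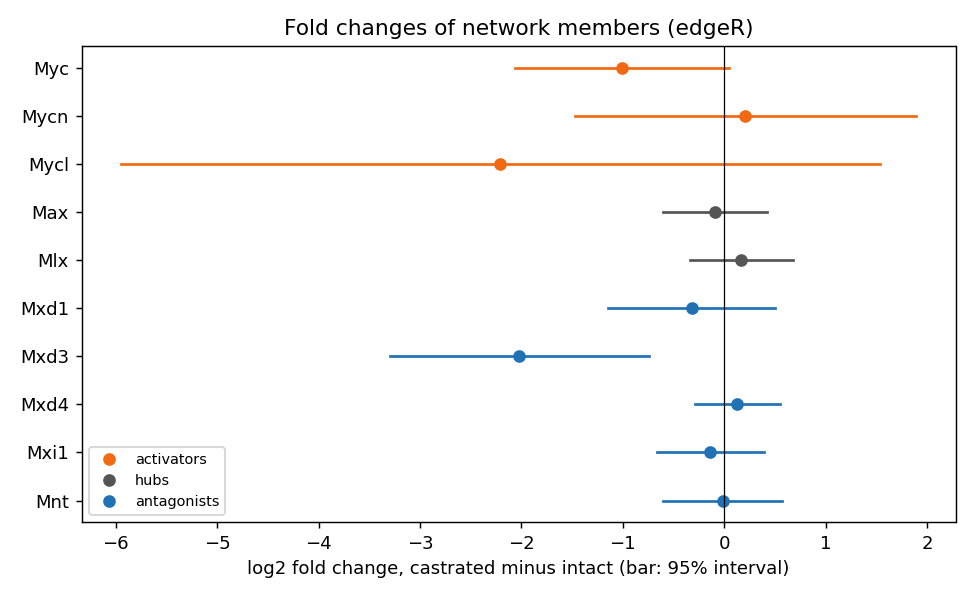
Log2 fold change, castrated minus intact, of each member from edgeR, with bars for the 95% interval and colors for activators, hubs and antagonists. The interval of Mycl runs from -5.95 to 1.53, and the interval of Mxd3, from -3.29 to -0.74, is the one that does not reach 0.

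The hubs were among the steadiest members. Max, the obligate partner of MYC and of most antagonists (chr12:76937269-76962248, minus strand), was at 113, 120.2 and 95.5 CPM in castrated and at 105 and 129 CPM in intact samples. The groups overlapped, and the log2 fold change was -0.09 (SE 0.20, 95% interval -0.60 to 0.42, edgeR adjusted p = 0.858). Mlx (chr11:101087290-101092207, plus strand) was at 48.0, 48.1 and 38.8 CPM against 40.9 and 39.1 CPM, with a log2 fold change of 0.17 (SE 0.20, 95% interval -0.34 to 0.68). Castrated replicate 3 was the lowest of the 5, so the groups overlapped here too. Each interval leaves out a difference of 1 on the log2 scale in either direction.

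Among the antagonists, Mxd3, the member of the MXD family that is expressed in S phase of dividing cells (chr13:55325170-55329731, minus strand), was at a low level in all samples. It had 13, 11 and 15 counts in the castrated samples and 51 and 54 counts in the intact samples, or 0.45, 0.59 and 0.73 CPM (0.59 ± 0.14, SD, n = 3) against 2.28 and 2.50 CPM (2.39 ± 0.16, SD, n = 2). Every castrated sample was below both intact samples, and the intact samples were close together. The log2 fold change was -2.02 (SE 0.50, 95% interval -3.29 to -0.74), 4.05-fold lower, with an edgeR adjusted p of 0.290 that did not pass the threshold. It was between -2.20 and -1.85 when any 1 sample was left out and -2.41 without castrated replicates 2 and 3. No castrated sample exceeded a CPM of 1.

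The same library pattern was seen in proliferation genes, whose level moved with that of Mxd3. Of 8 such genes, 8 had a negative log2 fold change, 7 of them at an unadjusted p under 0.05 and 0 after adjustment, against 52.1% of all genes negative and 6.28% lower at that p, and every castrated sample was below both intact samples for 8 in CPM and for 7 in TPM (16.1% and 10.7% of all genes, median log2 fold change -1.71). Their summed level was 137, 191 and 197 CPM in the castrated samples and 375 and 434 CPM in the intact samples. Pcna was the most abundant in every sample but intact replicate 2, where Mki67 was (127 against 96.9 CPM). The part of the proliferation genes in the Mxd3 difference was not tested. Bub1, a spindle checkpoint kinase, had a log2 fold change of -2.09 (SE 0.37) and Ccnb1, the mitotic cyclin B1, of -1.97 (SE 0.42), while Mcm2, of the replicative helicase, was at -0.69 (SE 0.24) and Pcna, the replication clamp, at -0.38 (SE 0.21). The remaining 4 (Cdk1, Top2a, Birc5 and Mki67) lay between -1.94 and -1.62.

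Mxd4, the most abundant antagonist (chr5:34176580-34187710, minus strand), was at 149, 136 and 149 CPM in the castrated samples and 133 and 131 CPM in the intact samples. Every castrated sample was above both intact samples in CPM, but by little, and in TPM castrated replicate 2 (275) was below intact replicate 1 (280.4). The log2 fold change was 0.13 (SE 0.17, 95% interval -0.29 to 0.55, edgeR adjusted p = 0.741). Mnt, a broadly expressed antagonist (chr11:74830924-74845725, plus strand), was at 35.4, 51.1 and 48.0 CPM against 47.1 and 43.5 CPM, with a log2 fold change of -0.015 (SE 0.23, 95% interval -0.61 to 0.58). Castrated samples held both the lowest and the highest level of Mnt.

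Mxd1, known from terminal differentiation (chr6:86647045-86669159, minus strand), was at 30.4, 48.9 and 36.5 CPM in castrated and 60.3 and 36.2 CPM in intact samples. Mxi1, also called MXD2 and induced by hypoxia (chr19:53310506-53373293, plus strand), was at 67.8, 90.5 and 77.5 CPM against 94.1 and 78.7 CPM. For both, intact replicate 1 was the highest of the 5 samples and the groups overlapped. The log2 fold change was -0.32 for Mxd1 (SE 0.33, 95% interval -1.15 to 0.50) and -0.14 for Mxi1 (SE 0.21, 95% interval -0.66 to 0.39), and without intact replicate 1 the values were 0.11 and 0.016.

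Some members share bases with other genes, and the strand setting of the counting is not given in the sources used here. Mxd3 overlaps 105 bases of Prelid1 on the opposite strand, and Prelid1 was at 192, 172 and 151 CPM in castrated and 219 and 160 CPM in intact samples, far above Mxd3. Mlx overlaps 385 bases of Psmc3ip on the opposite strand, which was at 2.29, 2.03 and 2.04 CPM against 9.42 and 9.49 CPM, well below Mlx. Max, Mxd1, Mxd4 and Mxi1 overlap noncoding or predicted genes, and Myc, Mycn, Mycl and Mnt overlap none.

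The balance of activators and antagonists was followed as summed TPM. The activators summed to 119, 110.1 and 87.6 TPM in the castrated samples and to 206 and 325 TPM in the intact samples. The antagonists summed to 376, 384 and 386 TPM in the castrated samples and to 404 and 283 TPM in the intact samples. Activator level in each castrated sample was thus below that of both intact samples (106 ± 16.3, SD, n = 3, against 266 ± 84.0, SD, n = 2), and antagonist level in the castrated samples lay between the 2 intact samples. The activator separation rested on Mycl in intact replicate 2 (257 of 325 TPM), since Myc itself was at 88.7 TPM in castrated replicate 2 and at 66.4 TPM in intact replicate 2.

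The ratio of activators to antagonists was 0.317, 0.287 and 0.227 in the castrated samples and 0.511 and 1.15 in the intact samples. On the log2 scale this was -1.87 ± 0.25 (SD, n = 3) against -0.38 ± 0.83 (SD, n = 2), a difference of -1.48 with a pooled SD of 0.52. No test was made of this score, because its members were not chosen independently of the data. The difference was -2.07 without intact replicate 1 and -0.90 without intact replicate 2. It was -0.96 without Mycl among the activators, a choice made after seeing the data, and it had the opposite sign, 0.14, when each member counted equally as the mean of log2(TPM + 0.5).

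The source of the activator level differed between the intact mice. Myc made up 98.0% of activator TPM in intact replicate 1 and 20.4% in intact replicate 2, where Mycl made up 79.1%. In the castrated samples, Myc made up 56.8%, 80.5% and 56.5%, and Mycl 42.2%, 18.4% and 41.1%. Mxd4 made up between 69.5% and 79.7% of antagonist TPM in all 5 samples. With Myc alone over the antagonists, the ratio was 0.180, 0.231 and 0.128 against 0.501 and 0.235, so that castrated replicate 2 and intact replicate 2 were nearly level. Set against their common partner, the activators and antagonists together summed to 4.36, 4.06 and 4.999 times the TPM of Max in castrated samples and to 5.51 and 5.94 times in intact samples, so that transcripts of the partners exceeded those of Max in every sample.

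**Figure D3:**
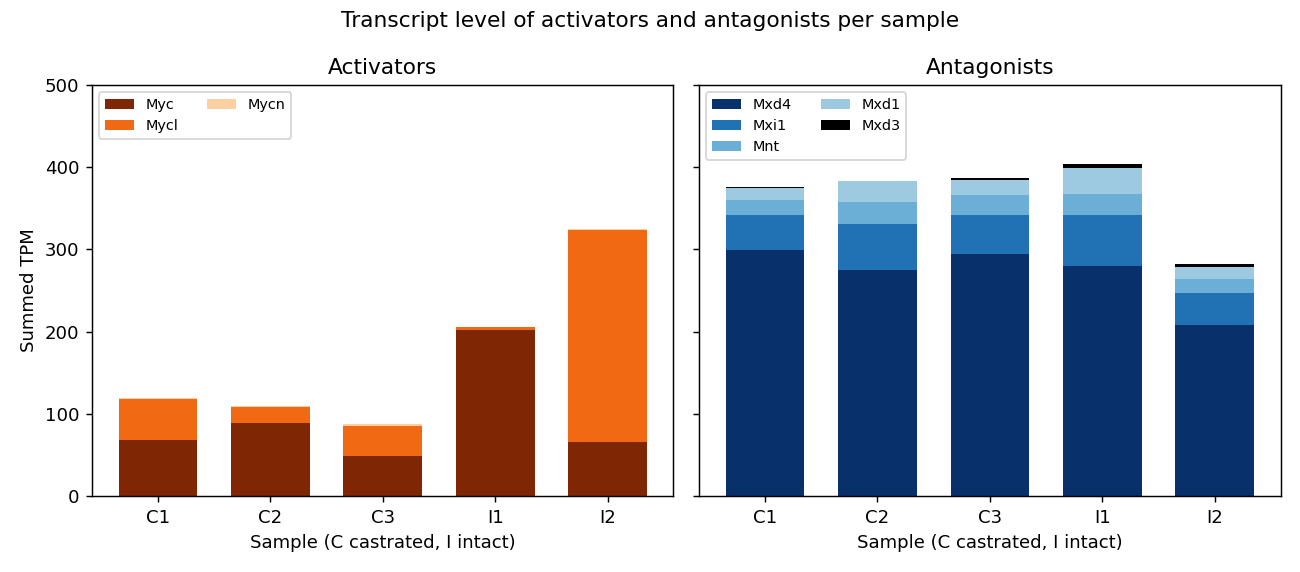
Summed TPM of activators and of antagonists in each sample, stacked by gene from 0. Mycl fills most of the activator bar of intact replicate 2 (79.1%), Myc that of intact replicate 1 (98.0%), and Mxd4 most of every antagonist bar.

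The extended network held Mga, which combines a MAX-binding and a T-box domain, and the MLX partners Mlxip (MondoA) and Mlxipl (ChREBP). Mga was at 96.4, 112 and 116 CPM against 102 and 217 CPM, with a log2 fold change of -0.56 (SE 0.34), and Mlxip had a log2 fold change of -0.25 (SE 0.34). Mlxipl was at 1.84, 3.58 and 5.83 CPM in the castrated samples and 1.21 and 0.60 CPM in the intact samples. Every castrated sample was above both intact samples, and the log2 fold change was 2.04 (SE 0.71, edgeR adjusted p = 0.312), with an unadjusted p under 0.05. Of the intact samples only replicate 1 exceeded a CPM of 1. Mlxipl thus passed the filter only through the castrated samples, where it is higher, and its p says nothing of the network as a whole. ChREBP is also abundant in fat, and the adipocyte marker sums given above moved with it in part, at 2308 and 1473 CPM in castrated replicates 2 and 3, and their part was not tested. Of the MLX-MondoA targets, Txnip, an inhibitor of glucose uptake, was at 414, 1005 and 1386 CPM against 166 and 615 CPM (log2 fold change 1.26, SE 0.76), and Arrdc4, a related arrestin, had a log2 fold change of 0.44 (SE 0.46). The groups overlapped for both genes.

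Among genes of proteins that act with the network members, 0 passed after adjustment. Of 9 MYC coactivators, 8 had a negative log2 fold change (52.1% of all genes), and 0 passed an unadjusted p under 0.05 in either direction. For 6, every castrated sample was below both intact samples in CPM (16.1% of all genes). In TPM this held for 1, Trrap (10.7% of all genes), while 1, Kat5, lay above both (20.5% of all genes). The median log2 fold change was -0.29. The lowest were Trrap, the scaffold of histone acetyltransferase complexes, at -0.46 (SE 0.19), and Ep400, a chromatin remodeler, at -0.35 (SE 0.19). The highest were Cdk9, the elongation kinase, at -0.07 (SE 0.20), and Kat5, the acetyltransferase TIP60, at 0.014 (SE 0.23). Of 8 corepressor genes used by MXD and MNT, 5 were negative and 3 positive (median -0.13), and 1 passed the unadjusted threshold, a share of 12.5% near the 15% of all genes. That gene was Rbbp7, a histone-binding subunit, at 200.3, 202 and 220 CPM against 271 and 479 CPM (log2 fold change -0.85, SE 0.29, edgeR adjusted p = 0.306). Sap30 was at -0.31 (SE 0.28), Sin3a at 0.08 (SE 0.22) and Hdac1 at 0.31 (SE 0.28).

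Among 10 genes for regulators of MYC protein stability and activity, 8 had a negative log2 fold change (52.1% of all genes), with a median of -0.35. At an unadjusted p under 0.05, 3 were lower (6.28% of all genes), and 0 passed after adjustment. Cip2a, which protects MYC from the phosphatase PP2A, was at 6.19, 6.09 and 8.40 CPM in castrated and 15.05 and 25.3 CPM in intact samples (log2 fold change -1.55, SE 0.36, edgeR adjusted p = 0.289). Aurka, a mitotic kinase that stabilizes MYCN, was at 2.99, 4.22 and 5.0 CPM against 10.05 and 11.9 CPM (-1.43, SE 0.37). Both are also expressed with the cell cycle, and proliferation genes moved with them as described for Mxd3. Huwe1, a ubiquitin ligase, was at 361, 312 and 315 CPM against 445 and 576 CPM (-0.63, SE 0.23). Over the 10 genes, every castrated sample was below both intact samples for 6 in CPM (16.1% of all genes) and for 4 in TPM (10.7% of all genes), these 3 genes among them on both scales. Fbxw7, the ligase subunit that marks MYC for degradation, had the highest log2 fold change of the 10, at 0.10 (SE 0.24).

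Of 26 genes known to be activated by MYC, 25 had a negative log2 fold change, against 52.1% of all genes tested, with a median of -0.45 and a range from -1.12 to 0.025. At an unadjusted p under 0.05, 8 were lower (6.28% of all genes), none was higher and 18 did not pass, and none passed after adjustment. For 17 of 26, every castrated sample was below both intact samples in CPM (16.1% of all genes), and in TPM this held for 8 of 26 (10.7% of all genes), the same 8 that were lower at an unadjusted p under 0.05. The summed level of the 26 genes was 3770, 3688 and 3565 CPM in the castrated samples and 5471 and 5408 CPM in the intact samples.

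Of these 8 genes, Nop56, of the small nucleolar ribonucleoprotein, was at 78.9, 72.8 and 53.1 CPM in castrated and 159 and 138 CPM in intact samples (log2 fold change -1.12, SE 0.23, edgeR adjusted p = 0.289). Gnl3, nucleostemin, was at 61.7, 65.9 and 53.1 CPM against 118 and 128 CPM (-1.03, SE 0.18). Slc7a5, the amino acid transporter LAT1, was at 31.4, 39.8 and 36.7 CPM against 64.3 and 78.7 CPM (-0.99, SE 0.21). In each of these the groups were well separated, and both intact samples were high. Polr1b, a subunit of RNA polymerase I, had a log2 fold change of -0.90 (SE 0.21), Npm1, nucleophosmin, of -0.96 (SE 0.35), Mybbp1a, a nucleolar transcription regulator, of -0.59 (SE 0.17), Fbl, fibrillarin, of -0.55 (SE 0.19), and Nolc1, a nucleolar phosphoprotein, of -0.42 (SE 0.16). At the other end, Bop1, of the PeBoW complex of ribosome assembly, was at -0.07 (SE 0.25), and Ddx18, a nucleolar helicase, was at 0.025 (SE 0.19).

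Across the samples, Myc and the summed targets differed in order, and the part of Myc level in the targets was not tested. The summed targets were high in both intact samples, while Myc was high in intact replicate 1 only. Odc1, the ornithine decarboxylase gene and a classical MYC target, chosen here after its values were seen, was at 145, 124 and 84.6 CPM in castrated samples and at 309.5 and 83.0 CPM in intact samples, with intact replicate 1 alone standing high, as for Myc. The count of 8 genes was 5 without castrated replicate 2, 4 without castrated replicate 3 and 1 without both, while the count over all genes went from 2195 to 1125, 1037 and 322 in the same fits. Without both, the lone castrated sample is assumed to vary like the intact samples, and 25 of 26 genes had a negative sign.

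**Figure D4:**
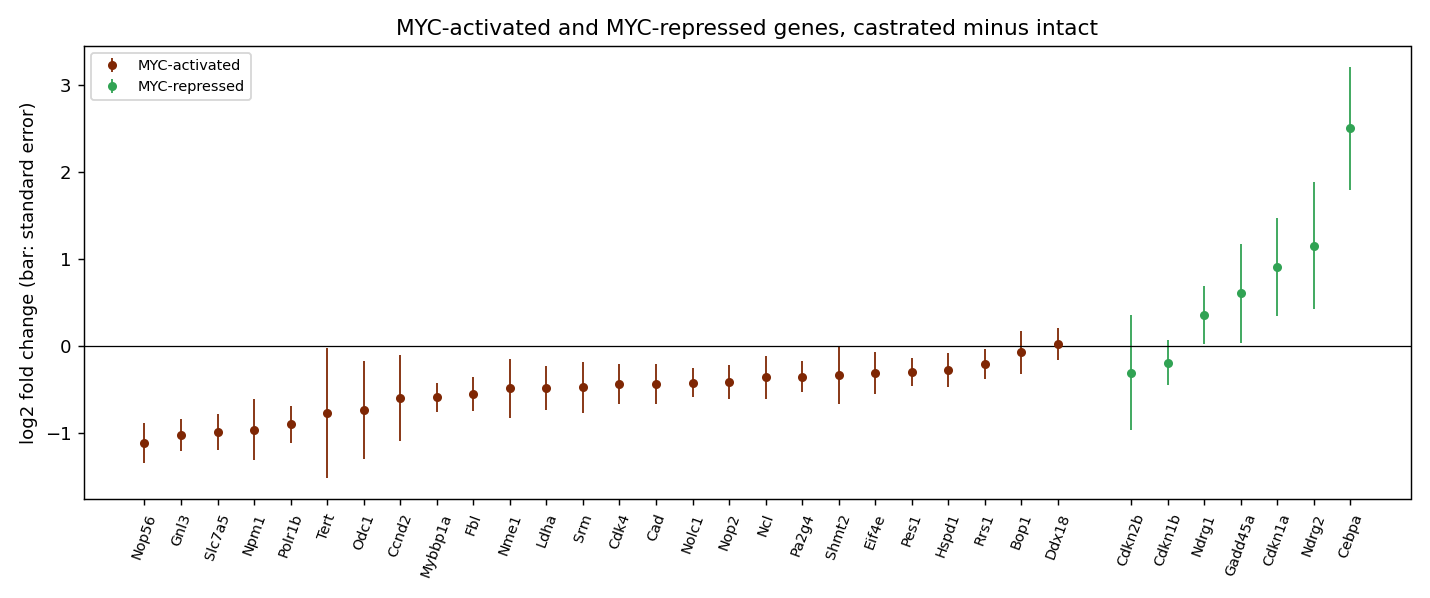
Log2 fold change, castrated minus intact, of 26 MYC-activated and 7 MYC-repressed genes from edgeR, with bars for the standard error. The activated genes lie from -1.12 to 0.025 and the repressed genes from -0.31 to 2.50.

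E-boxes were found in the promoter windows of 8 of the 19 MYC-activated genes with a window, 42.1% against 11.2% of all tested genes. These genes were listed as known MYC targets, so this share describes the list and is not a result of these samples. Among the 8 genes lower at an unadjusted p under 0.05, 5 had a window and 1, Mybbp1a, held the motif. It lies in chr11:72441347-72441376 on the plus strand, beginning 40 bases after the start site, and is shown beside the motif of Nop2, a nucleolar RNA methyltransferase, in chr6:125131811-125131840, beginning 60 bases before the start site.
Mybbp1a: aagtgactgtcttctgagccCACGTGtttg
Nop2: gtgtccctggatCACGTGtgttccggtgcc
Mybbp1a was at 128, 134 and 130 CPM in castrated and 186 and 208 CPM in intact samples, and Nop2 was at 42.3, 44.5 and 35.2 CPM against 54.6 and 53.7 CPM. For both, every castrated sample was below both intact samples in CPM, but in TPM the groups overlapped for Nop2, where castrated replicate 2 was at 40.5 and intact replicate 2 at 38.3. Of the genes with a window in the other lists, CACGTG was held by 1 of 3 of the extended network, 1 of 8 coactivators, 1 of 7 corepressors, 0 of 9 turnover genes, 0 of 6 MYC-repressed genes, 1 of 2 MLX-MondoA targets, 1 of 8 β-catenin partners and 0 of 8 proliferation genes. No test was made of these shares, which stand beside 11.2% of all tested genes.

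Of 7 genes known to be repressed by MYC, 5 had a positive and 2 a negative log2 fold change (median 0.60), and 1 was higher at an unadjusted p under 0.05 (8.74% of all genes). Cebpa, a differentiation factor of fat, liver and myeloid cells, was at 23.7, 111 and 97.6 CPM in the castrated samples and 11.97 and 15.4 CPM in the intact samples (log2 fold change 2.50, SE 0.71, edgeR adjusted p = 0.290). The high samples were castrated replicates 2 and 3, those with adipocyte markers at 2308 and 1473 CPM, whose part in the Cebpa level was not tested. Ndrg2, a differentiation-associated gene, was at 1.16 (SE 0.73), Cdkn1b, the cell cycle inhibitor p27, at -0.19 (SE 0.26), and Cdkn2b, the inhibitor p15, at -0.31 (SE 0.67).

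Of 8 β-catenin partners of Myc, 5 had a negative and 3 a positive log2 fold change (median -0.09, against 52.1% of all genes negative), with 0 at an unadjusted p under 0.05 (15% of all genes). Axin2, a feedback target of Wnt signaling, was at 341, 143 and 121 CPM against 332 and 584 CPM (log2 fold change -1.18, SE 0.53). Castrated replicate 1 was above intact replicate 1 for Axin2 in CPM. In TPM, every castrated sample was below both intact samples for 2 partners, Axin2 and Bcl9, and above both for 1 (10.7% and 20.5% of all genes). In CPM these counts were 1 and 0 (16.1% and 17% of all genes). Tcf7, a partner factor of β-catenin, was at -1.002 (SE 0.51), Ctnnb1, the β-catenin gene, at 0.49 (SE 0.63), and Tcf7l1, a repressive TCF factor, at 0.59 (SE 0.49).

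The genes whose pattern over the 5 samples was most like that of Myc were found by the smallest root mean square difference in log2 CPM, after each gene was centred on its own mean. They were C1galt1, a glycosyltransferase (difference 0.05), Ecrg4 (0.06), Ankrd37 (0.10), Dnhd1 (0.12) and Prss22 (0.14). C1galt1 was at 132, 180 and 95.7 CPM in castrated and at 365 and 156 CPM in intact samples, with intact replicate 1 alone standing high.

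The same measure was applied to Mycl and Mxd3 after their values had been seen. For Mycl, the nearest genes were Dkkl1 (0.39), Egfl6 (0.40), Xkrx (0.44), Cldn8 (0.49) and Gata3 (0.53), less close than those of Myc. Gata3, a luminal transcription factor, was at 145, 70.6 and 108 CPM in castrated and 10.6 and 416 CPM in intact samples, low in intact replicate 1 and high in intact replicate 2 as Mycl was. For Mxd3, the nearest were the cell division genes Birc5 (0.08), Pole (0.09), Tk1 (0.09), Cdc25c (0.10) and Cdk1 (0.12). Cdk1, the mitotic kinase, was at 7.51, 9.51 and 11.7 CPM against 28.2 and 30.7 CPM, in which all castrated samples were low.

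**Figure D5:**
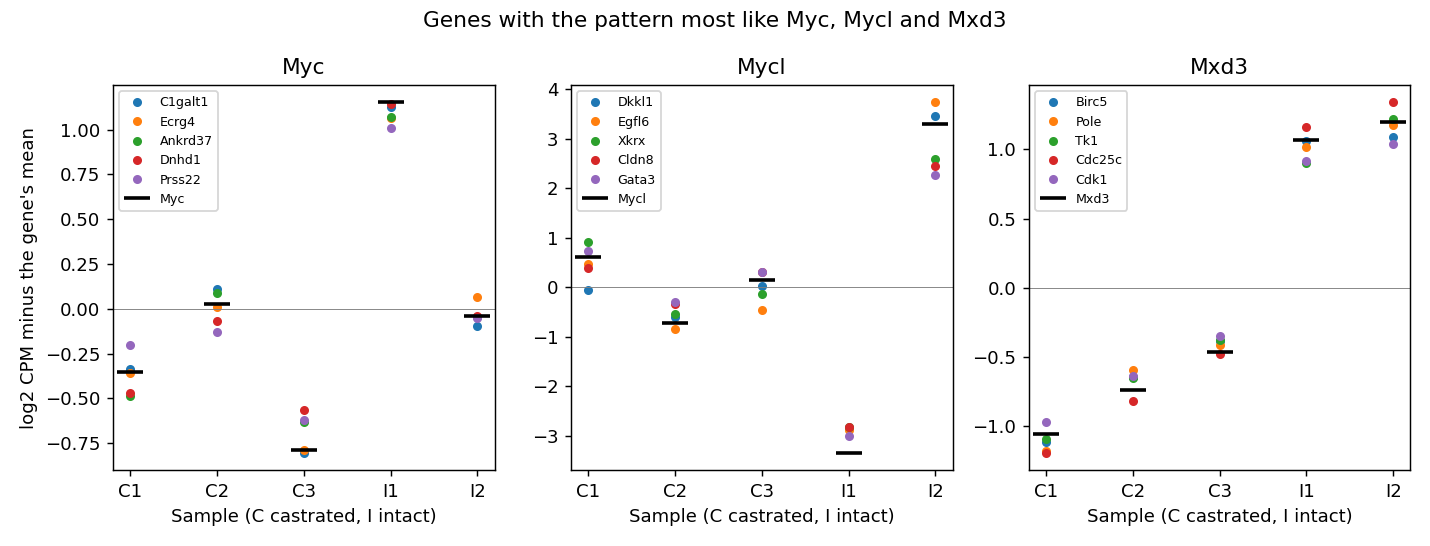
Log2 CPM minus the mean of each gene in the 5 samples (C castrated, I intact), for Myc, Mycl and Mxd3 as black bars and their 5 nearest genes as colored points. Myc is high in intact replicate 1 alone, Mycl in intact replicate 2 alone and Mxd3 in both.

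Markers of several other cell types were higher in castrated samples, none past the adjusted threshold. All 6 macrophage markers were above both intact samples in every castrated sample (17% of all genes in CPM and 20.5% in TPM, median log2 fold change 1.64), with a summed level of 2214, 6566 and 2627 CPM against 925 and 1462 CPM, Lyz2 being the most abundant. All 4 smooth muscle markers did likewise (median 3.27), with 215, 448 and 423 CPM against 91.3 and 68.5 CPM, most of it Acta2. All 3 B cell markers were above both intact samples (median 4.31), with 5.49, 42.5 and 51.1 CPM against 0.63 and 2.69 CPM, Cd79a being the most abundant. They could pass the filter only through the castrated samples, where they are higher, as their sum in intact replicate 1 was under 1 CPM. The count of 3 is thus a description only. Of 5 nerve and neuroendocrine markers, 5 were higher, while 52.1% of all genes were negative. For 4, every castrated sample was above both intact samples (17% of all genes in CPM and 20.5% in TPM, median 2.91). They summed to 17.3, 50.2 and 34.0 CPM against 8.08 and 5.60 CPM, S100b being the most abundant. With intact sums this low, some may have passed the filter only through the castrated samples, so these counts are also a description only. Fibroblast (median 0.77), endothelial (0.73) and T cell (0.66) markers overlapped between groups for at least 1 gene of each list. Fibroblast markers summed to 2909, 3994 and 5436 CPM against 2807 and 1566 CPM, with Dcn the most abundant. Endothelial markers summed to 246, 184 and 204 CPM against 319.5 and 107 CPM, with Cdh5 the most abundant. The 4 T cell markers summed to 9.70, 32.0 and 30.6 CPM against 2.63 and 24.9 CPM, with Cd4 the most abundant. All 6 epithelial markers overlapped (median -0.23). The part of these cell types in the differences of MYC-activated genes, Mxd3 and the other members was not tested.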

How the data were processed

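The authors took PCa tissue, identified under the microscope, from TripleTg mice (3 castrated, 2 intact), removed ribosomal RNA and sequenced paired ends. Reads were trimmed (Trimmomatic 0.39), placed on mm10 (STAR 2.7.9) and counted per gene (HTSeq 2.0.2). The deposited values are raw counts per gene, without normalization, and the deposited gene length in kilobases was used for TPM only. Total counts per sample ranged from 18951782 to 28015507, and the common dispersion between mice was 0.238.

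The 14612 of 24527 genes whose CPM exceeded 1 in 2 or more samples entered edgeR 4.0.16 in R 4.3.3, with TMM scaling and the quasi-likelihood F-test, and p-values were adjusted by Benjamini-Hochberg over all genes tested. The methods of the study name TPM as input, and counts were used because the test needs them. Standard errors were derived from the F statistic. Printed CPM use TMM-scaled library sizes. The members and all gene lists were chosen with earlier results of these data known. All members were named, and of each list the 2 highest and 2 lowest fold changes and every gene at an unadjusted p under 0.05. Exceptions are genes whose choice is stated beside them, the markers, and Nop2, which was shown for its motif. A few genes that this rule or the marker lists hold are not reported here, though they remain in the counts and sums. Genes most like Myc were the 5 nearest. Promoter windows were from RefSeq (GRCm38.p6) and overlaps from GENCODE M21. Trac was not in the table. Alternatives included DESeq2 1.42.0 and limma 3.58.1. The procedures were tested on simulated data. A chi-square per gene of 134 or more between samples of a group showed no library deposited more than once within a group. Castrated and intact samples were not compared with each other in this way. Same-numbered samples are different mice.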

Additional observations from a re-analysis of the deposited data

How the results depend on the processing

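The members are limited by 2 intact mice that differ from each other, and genes under about 50 counts, Mycn and Mxd3, also by counting error. DESeq2 called 989 genes, among them 1 member, Mxd3 (log2 fold change -2.03, DESeq2 adjusted p = 0.020), and the likelihood ratio test of edgeR called 369 genes and 0 members. Leaving out 1 replicate gave 0 to 1 genes called, the 1 being Coch without intact replicate 1 (named after its values were seen), and 0 members. All other alternatives called 0 genes and 0 members, while 2195 genes passed an unadjusted p under 0.05 with edgeR's quasi-likelihood test (1037 to 3312 when 1 replicate was left out, 322 without castrated replicates 2 and 3). Over the alternatives the adjusted p of Mxd3 ranged from 0.020 to 1. The count of 8 MYC-activated genes at an unadjusted p under 0.05 was 5 with the likelihood ratio test (2174 of all genes), 5 with limma on log2 TPM (1866 of all genes), 4 to 7 when 1 replicate was left out and 1 without castrated replicates 2 and 3, and 24 or 25 of the 26 were negative under every alternative. With TPM in place of CPM, chosen after seeing the data, the genes with every castrated sample below both intact samples were 1570 in place of 2348 of all genes, 8 in place of 17 MYC-activated genes and 1 in place of 6 MYC coactivators.

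Signs reversed as follows, and the cause was not tested. Mycl was 0.092 with limma voom and 0.099 with limma on log2 TPM, which also turned Max to 0.042 and Mnt to 0.099. Mnt was 0.00043 with library size only, and Mycn was -0.23 without castrated replicates 2 and 3. When 1 replicate was left out, Mycn ranged from -0.33 to 1.11, Mycl from -3.17 to 3.48, Max from -0.21 to 0.067, Mxd1 from -0.64 to 0.11, Mxi1 from -0.26 to 0.016 and Mnt from -0.12 to 0.13. Myc (-1.49 to -0.28), Mxd3 (-2.41 to -1.52), Mxd4 (0.11 to 0.26) and Mlx (0.12 to 0.29) kept their sign in all 18 alternatives each. The log2 ratio of activators to antagonists was 0.14 as the mean of log2(TPM + 0.5), ranged from -2.07 to -0.90 when 1 replicate was left out, was -0.97 with Myc alone, -1.49 without Mnt, and -0.96 without Mycl, a choice made after seeing the data, as were all alternatives for the MYC-activated genes.

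With the replicate number as a block, 0 genes were called, 1046 genes passed an unadjusted p under 0.05, 4 MYC-activated genes did so, and Max was at 0.0060, Mycl at -0.044 in place of -2.21 and Myc at -0.72 in place of -1.01. The labels do not pair same-numbered mice, and their deviations from the group means correlated at 0.149 for replicate 1 and -0.045 for replicate 2.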
